A study of Mus musculus with 4 samples.

Results

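Multi-base substitutions were examined in exome variants of 4 mouse leukaemias. They are places where the variant caller wrote the difference from the reference genome as 1 allele covering several bases, either as neighbouring substitutions (type mnp) or as a mixture with unchanged or with gained or lost bases between them (type complex). Members were the calls of these types on autosomes 1 to 19 with a single alternative allele, a quality score of at least 20, a depth of at least 10 reads, at least 3 reads with the alternative allele and an allele fraction of at least 10%. These limits left 4037 distinct sites among 58425 distinct single-allele sites of every type that passed them, or 6.91%. The allele fraction is the share of reads that carry the alternative allele.

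The 4 samples form 1 group labelled E2-KO. They are genomic DNA of c-Kit+ leukemia cells, sorted from the bone marrow of moribund C57BL/6 mice, and the series title explains the label as an Nras-G12D allele together with knockout of Ezh2. Nras encodes a small GTPase, and Ezh2 encodes the histone methyltransferase of Polycomb repressive complex 2. All 4 samples share these alleles, and neither a control group nor normal tissue of the same mice was analysed here, so no call is named somatic or inherited. The labels do not number the mice. Replicates 1 to 4 below follow the order of their records. A p-value over them rests on the 4 samples alone, and where all 4 differences share a sign it does not depend on their spread. How much of the spread among samples is technical is unknown. The labels do not state how either allele was made or in which cells it acts, and exome reads cannot show whether a gene is expressed.

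As background, adjacent substitutions on 1 DNA molecule can arise in a single event, such as an error-prone polymerase crossing a damaged base or a pair of linked pyrimidines. They can also arise in separate events at different times and then be inherited together. A change of a whole codon needs both bases to be read together, because the amino acid predicted from each base alone can differ from that of the pair. In a laboratory mouse, differences between inbred strains include many such haplotypes beside the single-nucleotide variants (SNVs).

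The alleles that carry the results are shown first, on the forward strand of mm10 from 5′ to 3′, with the changed bases in capitals and the unchanged bases between them in lower case. The first set shows the spacing of the changes, from neighbouring bases to 3 unchanged bases between them, in genes of signalling, chromosome and repair lists. Mapk3, which encodes the kinase ERK1, was changed at chr7:126764207-126764208. Smc3, a core subunit of the cohesin ring, was changed at chr19:53618895-53618897. Stag1, another cohesin subunit, was changed at chr9:100908539-100908542, and Kmt2a, a histone H3 lysine methyltransferase, at chr9:44847086-44847090.
Mapk3 reference: TC
Mapk3 alternative: CT
Smc3 reference: GaA
Smc3 alternative: TaG
Stag1 reference: CaaA
Stag1 alternative: AaaT
Kmt2a reference: AaaaC
Kmt2a alternative: GaaaT

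The second set shows alleles with 3 or more substituted bases. Kit, which encodes the receptor by which these cells were sorted, was changed at 3 neighbouring bases at chr5:75641280-75641282. The alleles of Sun5 at chr2:153861408-153861418, Bpifa2 at chr2:154013686-154013694, Pld1 at chr3:28041288-28041297 and Cd244a at chr1:171579117-171579127 each hold 5 substituted bases, among the most of any member.
Kit reference: CTG
Kit alternative: AAC
Sun5 reference: TGgggAagaTG
Sun5 alternative: CAgggGagaCA
Bpifa2 reference: TaCCcAtcA
Bpifa2 alternative: CaTAcGtcG
Pld1 reference: GactCAgAgA
Pld1 alternative: AactTGgGgG
Cd244a reference: CagcAGaCttT
Cd244a alternative: GagcCAaAttC

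Replicate 1 held 2572 members, replicate 2 held 2440, replicate 3 held 2294 and replicate 4 held 1872 (mean 2294.5 ± 304, SD, n = 4). The SNVs that passed the same limits numbered 31011, 30127, 28113 and 21451, so the samples ranked alike by both counts. For every 100 SNVs there were 8.29, 8.10, 8.16 and 8.73 members (mean 8.32 ± 0.283, SD, n = 4). Replicate 4 had the fewest members and the most for its SNVs. The limits kept between 27.1% and 57.7% of the deposited multi-base rows, and between 41.0% and 72.1% of those rows had a depth under 10. The median depth of the members was 43, 39, 45 and 41.5 reads, against 51, 44, 54 and 49 for the SNVs. Members had a mean mapping quality of 50 or more, on a scale on which 60 was the median, in 69.4%, 73.9%, 77.0% and 71.4% of cases, against 81.3%, 83.4%, 85.8% and 82.0% of SNVs. Over all classes, members thus reached this mapping quality less often than SNVs did in 4 of 4 samples. Members with gained or lost bases went the other way in each sample, at 83.9%, 88.3%, 88.8% and 86.2%. Pairs with at most 3 unchanged bases between them, and alleles with 3 or more substituted bases, were lower than SNVs in each sample. Why these classes differed was not tested. No member had an allele fraction under 20%, so the limit of 10% removed nothing, and 12 to 50 members per sample lay between 20% and 22%. At the depth limit, 50 to 72 members per sample had a depth of exactly 10, and 54 to 101 calls that met every other limit had a depth of 9.

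Pairs of substituted bases made up most of the sites. Adjacent pairs were 1050 sites, or 26.0%. Pairs with 1 unchanged base between them were 568, those with 2 between them 662 and those with 3 between them 531. Another 404 sites had 3 or more substituted bases, 820 sites held gained or lost bases (called length-changing here), and 2 were pairs farther apart. Only 27.5% of sites carried the type mnp, and the other 2925 were typed complex. Among the 3217 sites of equal length, 2813 had 2 substituted bases, 328 had 3, 63 had 4 and 13 had 5. Adjacent pairs numbered 690, 640, 623 and 487 in replicates 1 to 4, and were the most frequent class in each.

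**Figure D1:**
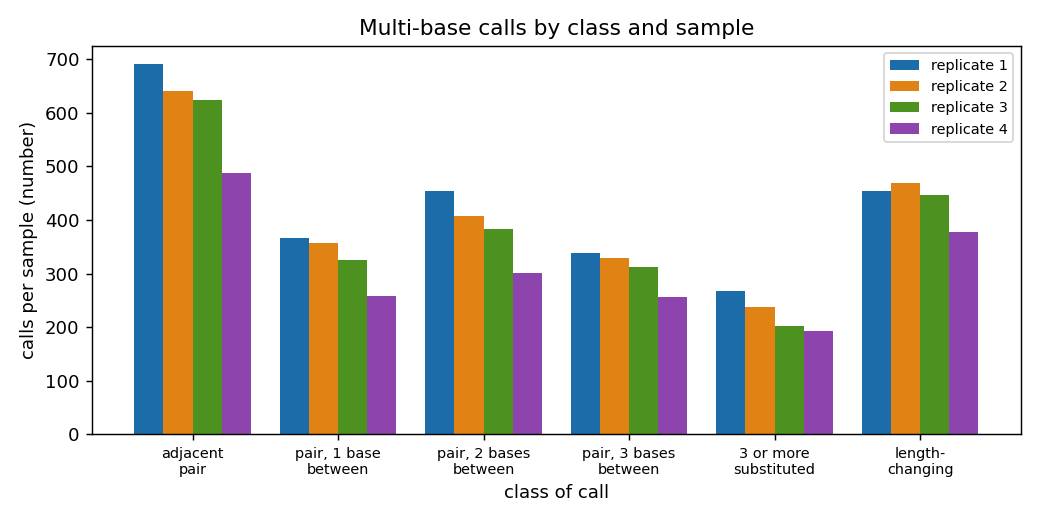
Number of multi-base calls (vertical axis) in each class (horizontal axis), with 1 bar per replicate. Adjacent pairs are the tallest group in every replicate, from 690 in replicate 1 to 487 in replicate 4, and pairs with 2 unchanged bases between them exceed pairs with 1 or 3.

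The length-changing sites were small changes for the most part. Of the 820 sites, 436 lost and 379 gained bases on balance, and 5 kept the length. A net loss of 1 base was found at 213 sites and a net gain of 1 base at 183. The net change was a multiple of 3 other than 0 at 121 sites, or 14.8%. In 638 of the 820 sites the gain or loss went with 1 substitution, and 42 sites held no substituted base. VarScan2, the second caller, listed an indel within 10 bases of 89.1%, 88.0%, 91.0% and 83.2% of those with a net change.

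The spacing of substitutions was also measured without the multi-base rows. VarScan2 lists each base by itself, and pairs of its autosomal SNVs at each distance were counted. Adjacent SNV pairs numbered 1405, 1221, 1033 and 873 in replicates 1 to 4. Pairs at a distance of 2 bases numbered 718 on average (SD 159, n = 4), so adjacent pairs were 1.59 ± 0.0467 times as many. Relative to the mean count at distances of 21 to 30 bases, adjacent pairs stood at 2.14 ± 0.145 and pairs 6 bases apart at 1.65 ± 0.0398 (SD, n = 4). The profile had a period of 3 bases. Each of the 6 multiples of 3 from 3 to 18 bases was more frequent than both neighbouring distances, in all 4 samples. Multiples of 3 from 6 to 18 bases held 1.16 ± 0.0220 times as many pairs as the distances beside them (SD, n = 4; 1.14 to 1.19). The members followed the same order on a shorter range, since pairs with 2 unchanged bases between them, which are 3 bases apart, outnumbered those 2 or 4 bases apart in every sample.

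**Figure D2:**
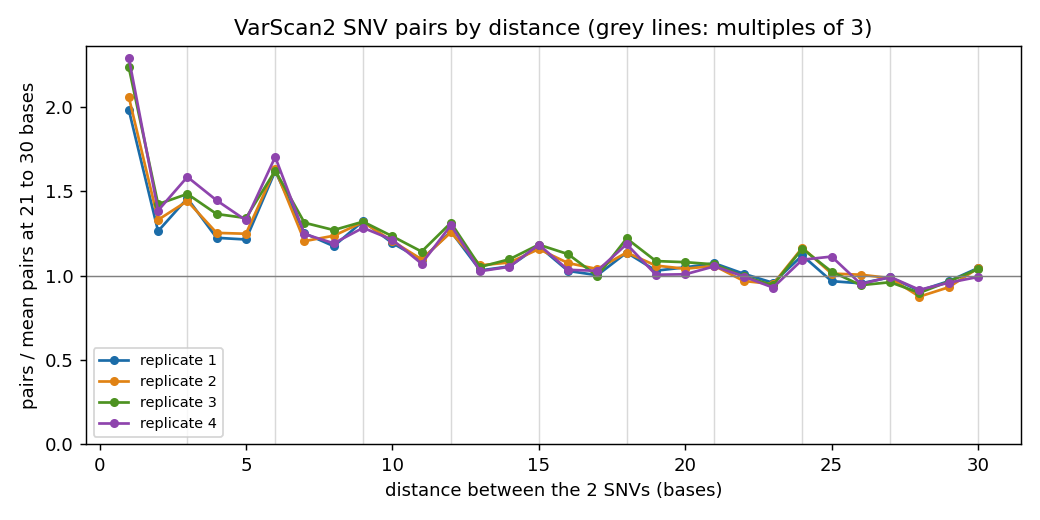
Number of VarScan2 SNV pairs at each distance in bases (horizontal axis), divided by the mean number at 21 to 30 bases (vertical axis), with 1 line per replicate and grey lines at multiples of 3. All 4 lines start near 2 at a distance of 1 base and rise at each multiple of 3 from 3 to 18 bases.

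Most adjacent SNV pairs of VarScan2 were inside a member. The share was 62.8%, 64.9%, 73.7% and 66.6% in replicates 1 to 4. A further 25 to 64 pairs per sample were in a multi-base row that missed a limit, and 7 to 27 pairs were written by SpeedSeq as separate SNVs. Between 23.2% and 30.7% were found in neither form.

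One exchange of neighbouring bases was far more frequent than the rest. The bases ca became tg, or on the other strand tg became ca, at 228 of the 1050 adjacent sites, or 21.7%. The share was 19.1%, 19.5%, 22.5% and 21.6% in replicates 1 to 4 (mean 20.7% ± 1.60, SD, n = 4). The next exchange, ag to ga with its complement, made up 4.57%. The exchange cc to tt, the change known from linked pyrimidines after ultraviolet light, was 38 sites or 3.62%. Both bases of ca to tg are transitions, and 1 of the orders in which the bases could change passes through the dinucleotide cg. Counted over all adjacent pairs, an intermediate with cg was possible at 358 sites, or 34.1% (31.9% to 36.1% over the samples). All 228 ca to tg sites are among these 358 by definition. The count takes any change to or from the cg intermediate, not transitions alone. As background, mammalian cg dinucleotides are the main sites of cytosine methylation, and methylated cytosines are prone to become thymine. Whether this process produced any of these pairs was not tested.

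Deep examples of ca to tg were covered by many reads. These 3 sites were chosen after their values were seen, as the deepest of this change in all 4 samples. In the vomeronasal receptor gene Vmn2r115, at chr17:23346371-23346372, tg was read in 692 of 993, 744 of 1098, 756 of 1180 and 615 of 977 reads of replicates 1 to 4. The share was thus between 62.9% and 69.7% in every sample. In the Ugt1a cluster, whose genes encode glucuronidating enzymes, the pair at chr1:88212549-88212550 was read in 79.7%, 80.7%, 75.2% and 76.9%. In the vomeronasal receptor gene Vmn1r15, at chr6:57258261-57258262, it was read in 216 of 216 reads, 264 of 265 reads, 85 of 229 reads and 236 of 236 reads. Replicate 3 alone was in the lower range there, at 37.1%, while the others were at 99.6% or more.

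Over the substituted bases of all classes, length-changing calls included, members held transitions less often than SNVs did. The share in members was 61.4%, 61.8%, 63.8% and 61.5% in replicates 1 to 4, and in SNVs 69.5%, 69.7%, 70.9% and 69.7%. The ranges did not overlap, and the difference was -7.84 points ± 0.521 (SD, n = 4), lower in 4 of 4 samples. An exact two-sided sign-flip permutation test over the 4 samples gave p = 0.13, which is the smallest p that 4 samples allow, and the Benjamini-Hochberg adjusted p over the 6 differences tested was 0.15. No difference tested here could reach 0.05 in this design. Spacing went with the kind of change. The share of transitions among the bases was 66.5% ± 1.56 in adjacent pairs and 60.4% ± 1.54 with 1 base between. It was 67.7% ± 2.08 with 2 between and 62.4% ± 1.06 with 3 between (SD, n = 4). Both bases were transitions in 47.5% of adjacent sites, 39.4% with 1 base between, 48.0% with 2 between and 43.1% with 3 between. Over the samples, the share was 47.2% ± 2.36 for adjacent pairs and 38.0% ± 2.67 for pairs with 1 base between (SD, n = 4). These 2 classes did not overlap. The samples share many sites, so their values are not independent of each other.

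Allele fractions fell into a lower range, under 65%, and an upper range from 65% on, and only sites covered by 30 or more reads enter the medians. The lower-range median of members was 39.9%, 41.6%, 35.3% and 40.2% in replicates 1 to 4. For SNVs it was 45.1%, 46.0%, 37.8% and 45.1%. Members were lower in every sample, with a mean difference of -4.27 points ± 1.23 (members minus SNVs, SD, n = 4). The exact sign-flip permutation test again gave p = 0.13 and an adjusted p of 0.15. Replicate 3 had the lowest median for both kinds of call and the smallest difference, at -2.48 points. Sites with 3 or more substituted bases had the lowest median of the equal-length classes, at 36.0% ± 1.89 (SD, n = 4; 34.2% to 37.7%), against 40.1% ± 3.22 for adjacent pairs. They were also the class with the smallest share of calls with a mapping quality of at least 50, at 56.8% ± 3.11, against 74.5% ± 3.63 of adjacent pairs. With only calls of mapping quality 50 or more on both sides, the members' median was 4.20 points lower (-4.20 ± 0.680, SD, n = 4).

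**Figure D3:**
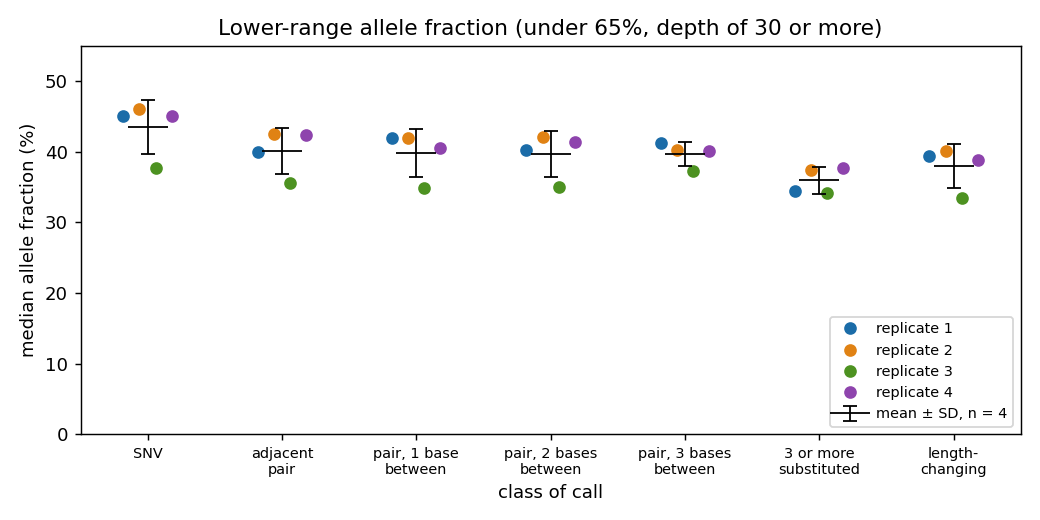
Median allele fraction in percent (vertical axis) of calls under 65% with a depth of 30 or more, for SNVs and each class of multi-base call (horizontal axis). Points are the 4 replicates, and black marks give the mean ± SD. SNVs average 43.5%, adjacent pairs 40.1% and calls with 3 or more substituted bases 36.0%, and replicate 3 is the lowest point in every class.

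The upper range held 23.4%, 22.3%, 25.1% and 46.3% of members at a depth of at least 30. The same shares for SNVs were 22.1%, 22.3%, 25.6% and 53.4%. Replicate 4 stood apart from the others for both kinds of call. The difference was -1.56 points ± 3.77 (SD, n = 4), higher in 2 samples and lower in 2, with p = 0.75 in the exact sign-flip permutation test (adjusted p = 0.75). Without replicate 4 it was 0.285 points, which turns its direction.

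The bases of a multi-base allele were read at nearly the same fraction by the second caller, which measures each base alone. Fractions were compared at 407, 353, 397 and 264 of the 690, 640, 623 and 487 adjacent pairs in replicates 1 to 4. Every base of the compared pairs was listed by VarScan2, and the other pairs were not part of this comparison. Over the compared pairs, the fractions of the bases differed by a median of 0.434 points ± 0.173 (SD, n = 4). They lay within 5 points of each other at 94.6%, 95.5%, 97.2% and 95.8% of such pairs in replicates 1 to 4. With 3 unchanged bases between, the median difference was 1.05 points ± 0.230, and with 3 or more substituted bases 1.37 points ± 0.274. The Sun5 allele shows this over 11 bases. VarScan2 gave its 5 bases between 35.2% and 38.6% in replicate 1, between 27.6% and 28.0% in replicate 3, and 100% in replicates 2 and 4. The Cd244a allele was an exception, with 3 of its bases between 32.2% and 37.7% and the other 2 at 65% and 66% in replicate 1.

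VarScan2 listed every substituted base of most equal-length members. The share was 93.0%, 91.8%, 92.8% and 84.9% in replicates 1 to 4. Exact 95% intervals, which hold counting error alone, ran from 91.8 to 94.0, from 90.5 to 93.0, from 91.5 to 93.9 and from 83.0 to 86.7. The same share for SNVs was 94.8%, 93.6%, 96.4% and 86.8%. Support was lower in members in 4 of 4 samples, by -2.27 points ± 0.862 (SD, n = 4; exact sign-flip permutation p = 0.13, adjusted p = 0.15). Counting a member as supported with at least 1 listed base turned the difference to 0.170 points, and with mapping quality of at least 50 it was -1.002 points. Between 4.53% and 11.8% of equal-length members had no base listed, and between 1.83% and 3.21% had some bases but not all.

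Support differed with the allele fraction. Among members at an allele fraction of 100%, VarScan2 listed all bases in 82.6%, 76.0%, 62.5% and 74.8%. SNVs at 100% were listed in 85.0%, 80.1%, 76.7% and 78.6%. In the lower range the shares were 95.2%, 95.5%, 94.1% and 92.0% for members and 96.7%, 96.7%, 96.6% and 94.9% for SNVs. Both kinds of call were thus listed less often at 100%. Complex calls of equal length were supported in 92.9%, 91.5%, 92.2% and 84.7%, and mnp calls in 93.1%, 92.3%, 93.9% and 85.5%. The difference was -0.858 points ± 0.620 (SD, n = 4), lower in 4 of 4 samples (exact sign-flip permutation p = 0.13, adjusted p = 0.15). It did not hold its size: it was -0.380 points at a depth of at least 20, -0.0403 points at a quality score of at least 100, -0.156 points at a mapping quality of at least 50, and 0.344 points with reads on both strands.

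Of the 4037 sites, 808 passed in all 4 samples, 889 in 3, 939 in 2 and 1401 in 1. The share in all 4 was 20.01%, against 21.1% of SNV sites. Length-changing sites were shared least, at 15.5% (exact 95% interval 13.1 to 18.1), and the other classes ranged from 19.6% to 23.3%. Samples share the reference, the capture and the strain named in the labels, so these intervals describe counting error and no test was made. Replicates 1 and 2 shared the most, 1758 sites or 54.0% of the sites found in either, and the other 5 pairs shared between 39.7% and 45.1%. SNVs had the same first pair, at 59.0%.

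**Figure D4:**
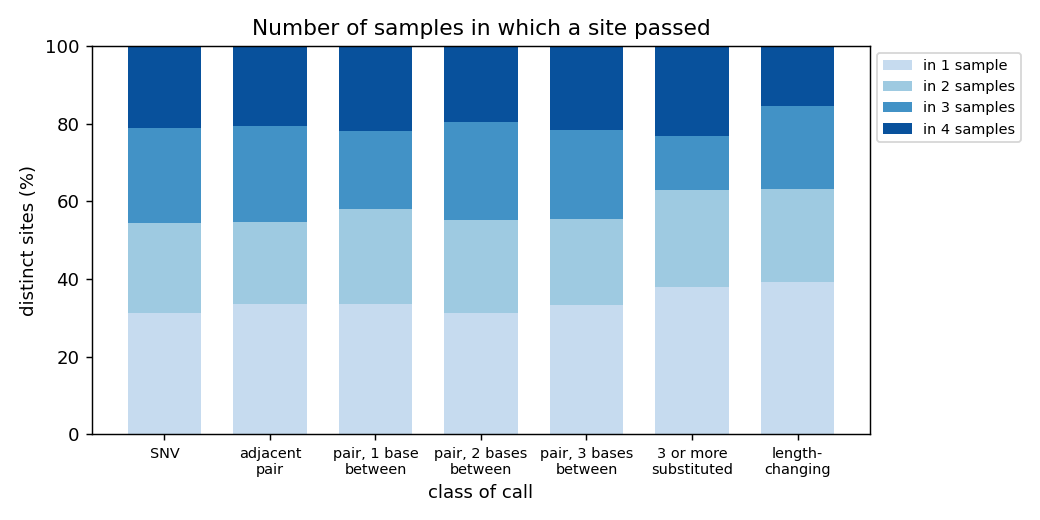
Percent of distinct sites (vertical axis) that passed in 1, 2, 3 or 4 samples (shades), for SNVs and each class of multi-base call (horizontal axis). The share in all 4 samples is 21.1% for SNVs, 20.7% for adjacent pairs and 15.5% for length-changing calls.

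At the 562 sites that passed in all 4 samples with a depth of at least 30 in each, the range of the allele fraction could be followed across samples. It was lower in all 4 at 218 sites and upper in all 4 at 120 sites. A further 78 sites were lower in replicates 1 and 2 and upper in replicates 3 and 4. Another 31 were upper in replicates 2 and 4 and lower in 1 and 3. The median over these sites was 47.2%, 48.5%, 51.0% and 82.9%. Upper-range sites numbered 194, 184, 244 and 315. Replicate 4 had the most sites in the upper range.

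Members lay almost wholly in stretches of the genome that were already rich in SNVs. A dense bin is a 2 Mb bin with at least 10 SNVs that both callers listed, and a sample had 259, 248, 257 and 202 of them. They held 96.1%, 96.4%, 96.1% and 93.9% of members, with exact 95% intervals of 95.2 to 96.8, 95.6 to 97.1, 95.2 to 96.8 and 92.7 to 94.95. For SNVs the shares were 96.6%, 96.8%, 96.5% and 95.1%, each SNV being left out of its own bin's count. The difference was -0.631 points ± 0.370 (SD, n = 4), lower in 4 of 4 samples, with p = 0.13 in the exact sign-flip permutation test and an adjusted p of 0.15. It shrank to -0.0442 points ± 0.313 with mapping quality of at least 50, and to -0.00137 points in 1 Mb bins with 5 or more SNVs. With alternative reads on both strands it was -1.29 points. Between 90.7% and 92.2% of the dense bins held at least 1 member.

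The members' allele fractions followed those of the SNVs around them. In bins where at least 90% of the deep SNVs were upper-range, 96.2%, 94.2%, 88.0% and 94.98% of members were upper-range too. In bins where at least 90% of the SNVs were lower-range, 97.8%, 97.4%, 99.1% and 98.4% of members were lower-range. Members thus went with their bin in nearly all cases in each sample. They stood below the median of their bin by a median of -3.25, -3.03, -3.27 and -1.60 points.

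The 88 to 114 members per sample outside dense bins were of another kind. Only 27.7%, 30.7%, 31.1% and 34.2% of them had a mapping quality of at least 50, against 71.1%, 75.5%, 78.9% and 73.8% inside. Sites found in all 4 samples were 60.2% ± 12.1 of the calls outside and 34.6% ± 5.04 of those inside (SD, n = 4). All bases were listed by VarScan2 for 77.2% ± 5.32 outside and 91.3% ± 3.69 inside. The ranges over samples did not overlap for any of these 3 measures, though the samples share many of these sites and are not independent here.

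**Figure D5:**
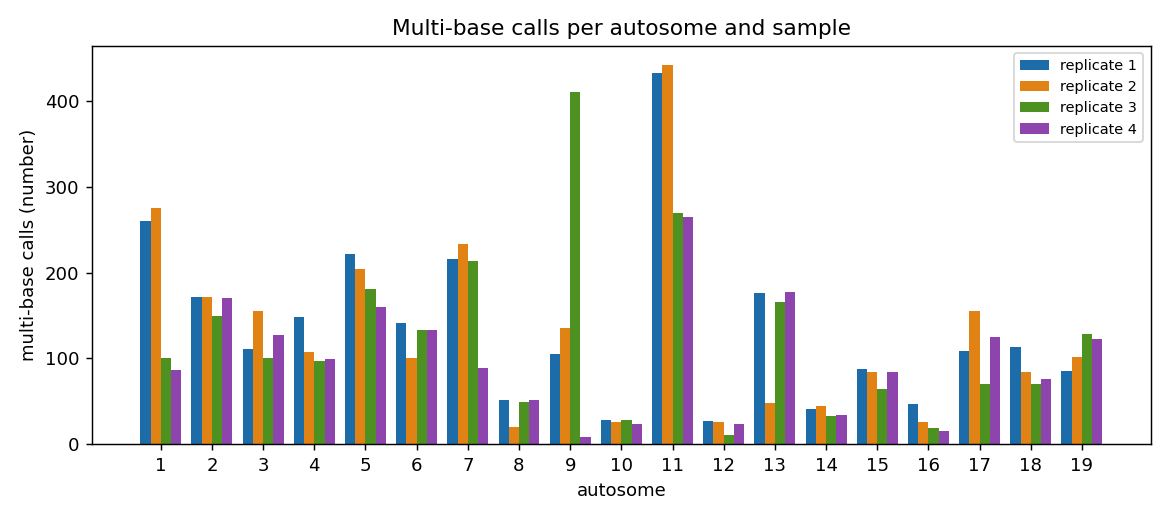
Number of multi-base calls (vertical axis) on each autosome (horizontal axis), with 1 bar per replicate. Chromosome 9 holds 411 calls in replicate 3 and 8 in replicate 4, and chromosome 11 holds 432 and 442 in replicates 1 and 2 and 270 and 265 in replicates 3 and 4.

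Chromosomes differed between samples in blocks. Chromosome 9 held 105, 136, 411 and 8 members in replicates 1 to 4. On chromosome 1 there were 260, 275, 101 and 87, and on chromosome 13 there were 176, 48, 166 and 177. Replicate 2 thus stood low on chromosome 13, replicate 4 on chromosome 9, and replicates 1 and 2 high on chromosome 1. Single bins show the same. The bin of chromosome 1 from 172 to 174 Mb held 52 members and 793 shared-caller SNVs in replicate 1 and 57 members and 838 SNVs in replicate 2. In replicates 3 and 4 it held no member, with 1 and 0 such SNVs. The bin of chromosome 9 from 104 to 106 Mb held 58 members and 560 SNVs in replicate 3 and no member in the others. Of 393 bins with a member, the 10 richest held 747 sites or 18.5%.

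Genes were taken from RefSeq for GRCm38, the build of mm10, by their start and end. Exons were not available, so no member is called coding, silent or intronic. Protein-coding gene bodies held 2939 sites, or 72.8%, against 81.0% of SNV sites. They belonged to 1186 of 20665 autosomal protein-coding genes, or 5.74%, which is the share to set beside the gene lists. Of these genes 605 had 1 site and 34 had 10 or more. The engineered genes held none. No multi-base row of any quality lay in Nras (chr3:103058285-103067914) or Ezh2 (chr6:47530274-47595270) in any sample. The Nras-G12D change is a single base in its usual form, and a deletion of exons is not a call of this kind.

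The richest gene was Sfi1, which encodes a centrin-binding protein of the centrosome, with 84 sites at chr11:3131850-3203347. It had 73, 65, 36 and 27 calls in replicates 1 to 4, with median allele fractions of 95.5%, 94.1%, 96.3% and 95.4%. The Sfi1 median was thus in the upper range in each sample, and fewer members were called in replicates 3 and 4. The gene also held 676 SNV sites. With mapping quality of at least 50, 76 of its sites were left.

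Some of the richest genes were filled in some samples and empty in others. Cd244a, a receptor of the SLAM family on natural killer cells, had 15 and 14 calls in replicates 1 and 2 and none in replicates 3 and 4. Vps13c, a lipid transfer protein of membrane contact sites, had 19 calls in replicate 3, at a median of 33.3%, and none elsewhere. The Cd244a allele shown above was read in 46 of 138 reads in replicate 1 only, with another call overlapping it in replicate 2. Mroh2a had 15, 17, 16 and 17 calls, at medians of 58.8%, 44.0%, 70.7% and 47.8%.

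Repeated gene families made up another part of the top of the list. Dmbt1, whose protein repeats a scavenger-receptor domain, had 40 sites, the predicted gene Gm7247 had 28, and the vomeronasal receptor genes Vmn2r115 and Vmn2r117 had 22 and 20. All 4 were called in all 4 samples. Their sites depended on mapping quality. With a minimum of 50, Dmbt1 had 14 sites, Gm7247 had 2, Vmn2r115 had 1 and Vmn2r117 had 3. The body of Gm7247 spans Vmn2r88 and Vmn2r89, so their sites are counted in both. Reads from near-identical copies cannot be told apart in such places, and these counts are uncertain. The bin of chromosome 17 from 22 to 24 Mb, which holds these Vmn2r genes, had 51, 53, 45 and 40 members, of which 15.7%, 7.55%, 13.3% and 15% had a mapping quality of at least 50.

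The alleles of Sun5, Bpifa2 and Pld1, each with 5 substituted bases, changed range between samples. The Sun5 allele, in a gene for a nuclear envelope protein of spermatids, was read in 31 of 82, 64 of 65, 21 of 73 and 61 of 62 reads. It was therefore lower-range in replicates 1 and 3 and near 100% in replicates 2 and 4. The Bpifa2 allele was read in 27 of 105 reads in replicate 1, 47 of 47 in replicate 2 and 43 of 44 in replicate 4, and was not listed in replicate 3. The Pld1 allele, in a phospholipase D gene, was read in 21 of 45 reads in replicate 2, 17 of 63 in replicate 3 and 65 of 66 in replicate 4, and was not listed in replicate 1. VarScan2 listed all 5 bases of these 3 alleles in every sample that carried them.

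Kit held 4 sites, and 3 of them passed in all 4 samples. The allele of 3 neighbouring bases shown above was read in 38 of 43 reads in replicate 1, 25 of 26 in replicate 2, 15 of 52 in replicate 3 and 26 of 27 in replicate 4. It was near 100% in replicates 2 and 4, at 88.4% in replicate 1 and at 28.8% in replicate 3 (exact 95% interval 17.1 to 43.1). The pair at chr5:75641082-75641083 was read in 35 of 35, 20 of 21, 6 of 15 and 16 of 16 reads. The pair at chr5:75645763-75645767 was read in 20 of 20, 16 of 16, 8 of 21 and 16 of 16. In all 3 Kit sites replicate 3 alone was in the lower range. The 2 Mb bin around them held 36, 40, 46 and 42 SNVs of both callers. VarScan2 listed 2 of the 3 neighbouring bases in replicate 1. Of the pair at chr5:75645763-75645767 it listed 0 bases in replicate 2 and 1 in replicate 4. All 15 alternative reads of the 3 neighbouring bases in replicate 3 were on the forward strand. The fourth site passed in replicate 3 only, in 4 of 12 reads, and the other samples listed an overlapping call.

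Among 20 RAS pathway genes only Mapk3 held a member. Its pair was read in 37 of 37 reads in replicate 1, 42 of 42 in replicate 2, 28 of 34 in replicate 3 and 50 of 50 in replicate 4. The fraction in replicate 3, 82.4% (exact 95% interval 65.5 to 93.2), was the lowest of the 4. Of 28 autosomal polycomb and chromatin regulators, Kmt2a alone held one, in 8 of 21, 18 of 30 and 6 of 26 reads of replicates 1 to 3. It was not listed in replicate 4, whose bin held 0 SNVs of both callers, against 233 to 240 in the others. Of 19 autosomal myeloid leukaemia drivers, Kit alone held members. The 9 autosomal splicing factors and the 10 genes of branched-chain amino acid metabolism held none.

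In the cohesin list, 2 of 8 autosomal genes held a member. The Smc3 allele was read in 23 of 23, 35 of 35, 38 of 38 and 50 of 50 reads, so all reads of all 4 samples carried it, with a mean mapping quality of 60. In each sample 2 or 3 of these reads were on the forward strand and the rest on the reverse. VarScan2 listed neither of its bases in any sample, and its bin held 0 SNVs of both callers in each. The Stag1 allele was read in 18 of 31 reads of replicate 3, all 18 on the forward strand, and was not listed in the other samples. Its bin held 89 SNVs of both callers in replicate 3 and 1, 0 and 0 in the others.

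In the DNA repair list, 2 of 28 genes held members. Msh3, a mismatch repair gene, had 2 sites. Its allele at chr13:92345190-92345192 was read in 10 of 19 reads of replicate 1, 10 of 39 of replicate 3 and 17 of 31 of replicate 4. Replicate 2 did not list this allele, and its bin held 2 SNVs of both callers there against 130 to 138 in replicates 1, 3 and 4, which carried it. Of these alternative reads, 1, 0 and 1 were on the forward strand in replicates 1, 3 and 4. Msh3 kept 1 of its 2 sites when alternative reads on both strands, a depth of at least 20 or a quality score of at least 100 was required. Pole, the catalytic subunit of DNA polymerase epsilon, had 1 site in 9 of 32, 12 of 32 and 10 of 35 reads of replicates 1 to 3. All alternative reads of the Pole site in replicates 2 and 3 were on the forward strand.

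Among the surface marker genes, Cd48 and Itgam held members beside Kit. Cd48, a ligand of the SLAM family, had a pair in 46 of 86 and 23 of 57 reads of replicates 1 and 2 that was not listed in the others. Itgam, the integrin CD11b of myeloid cells, had 2 sites in replicates 1 to 3. The deeper Itgam site, at chr7:128081575-128081579, was read in 18 of 35, 14 of 27 and 11 of 43 reads. The fraction was lowest in replicate 3, at 25.6% (exact 95% interval 13.5 to 41.2).

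Gene families were counted by name. Of 1104 autosomal olfactory receptor genes, 32 held 64 sites, with Olfr532 the richest at 11. Of 352 vomeronasal receptor genes, 24 held 120 sites. Of 388 zinc finger protein genes, 20 held 57 sites, with 11 in Zfp982. Of 30 genes of the Slfn, Ifi200 and guanylate-binding families, 13 held 41 sites. Gbp2b, an interferon-inducible guanylate-binding protein, had 18 of them, with 10, 11, 10 and 12 calls and a median mapping quality of 60 in each sample. Its median allele fractions were 29.0%, 24.0%, 24.9% and 27.7%, close to the lowest fraction that the files hold. Muc4, a membrane mucin, held 15 sites at median mapping qualities of 37.0 to 42.4. Of 38 MHC genes H2-Q6 alone held a site, and the 50 natural killer receptor and Ly6 genes held none.

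Promoter windows of RefSeq for GRCm38.p6, from 250 bases before to 50 bases after an annotated start of a gene, held 46 sites near 42 genes. The reference bases of the calls equalled those of the windows in all 50 pairs of a window and a site. Of the 46 sites, 9 passed in all 4 samples and 15 in 1. The window of Vmn2r117 is shown because it held 2 of the deepest sites. It is written on the gene's own strand, which is the reverse strand of chr17:23479548-23479847, with the substituted bases of both sites in capitals.
Vmn2r117 window: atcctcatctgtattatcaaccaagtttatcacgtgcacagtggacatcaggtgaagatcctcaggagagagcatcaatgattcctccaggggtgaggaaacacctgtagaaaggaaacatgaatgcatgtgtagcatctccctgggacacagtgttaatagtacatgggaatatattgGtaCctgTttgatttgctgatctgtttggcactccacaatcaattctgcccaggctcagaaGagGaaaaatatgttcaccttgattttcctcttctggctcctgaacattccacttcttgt

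On the strand of Vmn2r117 the alleles of these sites were as follows, and they began 71 and 10 bases before the annotated start.
Vmn2r117 far reference: GtaCctgT
Vmn2r117 far alternative: CtaTctgC
Vmn2r117 near reference: GagG
Vmn2r117 near alternative: CagA

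The near Vmn2r117 site was read in 287 of 332, 231 of 319, 318 of 392 and 247 of 307 reads (80.1% ± 5.79, SD, n = 4). The far site was read in 90 of 100, 91 of 122, 129 of 151 and 107 of 131 reads (82.9% ± 6.52, SD, n = 4). Both were upper-range in all 4 samples without reaching 100%. The mean mapping quality of their reads lay between 47.0 and 49.9 and between 49.8 and 54.2, and at most 1 read of the far site per sample was on the forward strand.

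Other promoter windows held sites with well placed reads. The allele at chr6:56369586-56369592 lay 42 bases after a start of Pde1c, which encodes a calmodulin-dependent phosphodiesterase, and in windows of the oppositely oriented Gm34753. It was read in 75 of 77, 55 of 55, 36 of 115 and 61 of 61 reads, with a mapping quality of 60, so replicate 3 alone was lower-range. Olfr1393, an olfactory receptor gene, had a pair at chr11:49280140-49280143. It began 10 bases before an annotated start that lies inside the gene body (chr11:49263873-49292359). The Olfr1393 pair was read in 44.0%, 38.1%, 70.3% and 100% of 151 to 168 reads. The pair of Olfr982 began 8 bases after its start and was read in 28 of 56, 32 of 75 and 21 of 77 reads of replicates 1 to 3, and was not listed in replicate 4.
Pde1c reference: GggCCcC
Pde1c alternative: TggTGcT
Olfr1393 reference: GtcA
Olfr1393 alternative: AtcT
Olfr982 reference: GaG
Olfr982 alternative: AaA

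A private site passed in 1 sample and overlapped no call of either caller at any quality in the other 3. Replicate 1 had 179 of them, replicate 2 had 79, replicate 3 had 421 and replicate 4 had 26, which is 6.96%, 3.24%, 18.4% and 1.39% of each sample's members. The sites that passed in 1 sample only numbered 431, 282, 546 and 142, so most of those of replicate 3 were private and most of those of the other samples were not. Between 99 and 221 of them per sample had all their substituted bases listed in another sample in another form. Dense bins held 93.3%, 100%, 98.3% and 88.5% of the private sites. In replicate 3, 273 of the 421 were on chromosome 9. On that chromosome, the bin from 104 to 106 Mb held 560 SNVs of both callers in replicate 3. In replicates 1, 2 and 4 it held 1, 0 and 0. Sites that passed in 1 sample only were 34.7% of member sites and 31.3% of SNV sites. A private share of SNVs is not given here.

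Over all private sites, 51.4%, 73.4%, 93.3% and 46.2% had a mapping quality of at least 50 in replicates 1 to 4. Replicate 3, with the most private sites, had the highest share. Several of the deepest private sites were below this quality. In Gm9758, a predicted gene on chromosome 5, an allele was read in 398 of 1811 reads of replicate 1 at a mean mapping quality of 26.6. On chromosome 10 an allele was read in 411 of 1163 reads of replicate 4 at 14.1, and VarScan2 listed neither base. The deepest of replicate 2 was ca to tg in Olfr328, in 79 of 379 reads at 43.6, again with neither base listed. In the same sample 2 adjacent pairs in Vmn2r124 were read in 93 of 207 and 81 of 185 reads at 53.7 and 57.5, with all bases listed. Replicate 3 had alleles on chromosome 9 in Fbxw13, in 123 of 343 reads, and in Me1, the cytosolic malic enzyme, in 108 of 294 reads, both at mapping qualities over 50 and with all bases listed.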

How the data were processed

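Exomes of 4 samples were enriched with an Agilent SureSelect kit and sequenced in paired reads of 100 bases (BGISEQ500), per the labels' protocols. The deposited SpeedSeq files come from freeBayes 0.9.21 run on single samples against mm10, per the file headers. The headers describe the deposited quality score as Phred-scaled, and depth and alternative reads are whole read counts deposited by the authors. VarScan2 SNV and indel tables with reference and variant reads were also deposited. For the aligner, the handling of duplicates and the release of VarScan2, the sources used here state nothing.

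Substituted bases were read from the caller's alignment string. An allele fraction is alternative reads divided by depth. Confident SNVs, from which dense bins were made, passed the read limits in both callers. Only rows that SpeedSeq typed as SNVs entered, so members do not count towards their own bins. VarScan2 support needs the same position and bases. Differences between members and SNVs were taken within each sample and tested by an exact two-sided sign-flip permutation test, with Benjamini-Hochberg adjustment over 6 differences. Intervals are exact (Clopper-Pearson) at 95%. The parsing and tests were tested on simulated data. Python 3.11.15, pandas 2.3.3, numpy 2.4.6, scipy 1.17.1 and matplotlib 3.10.9 were used.

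Named genes were Nras and Ezh2, genes of the lists with a member (families by count with examples), the 10 genes with the most sites, the 5 calls with the most substituted bases, up to 4 private calls per sample and up to 8 promoter calls by depth. Some genes that this rule names are not reported here. The members and lists were chosen with earlier results of these data known. Alternatives changed quality, depth, fraction, mapping quality, strands, bin size, support rule or left out a sample. Calls with several alternative alleles and sex chromosomes were left out.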

Additional observations from a re-analysis of the deposited data

Results flagged for a closer look

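Among 15 per-sample quantities of the multi-base calls, 4 had 1 sample far from the other 3: the gap to the nearest sample, as a share of the whole range, passed Dixon's 95% critical value. Chance alone gives such a gap in about 1 in 20 groups, and quantities of the same calls are not independent. Replicate 4 stood low in the share of members in dense bins, at 93.9%, and in the share with every base listed by VarScan2, at 84.9%. It stood high in the share of deep members in the upper range, at 46.3%. SNVs of replicate 4 moved the same way on all 3 measures. Replicate 3 stood high in the share of transitions among substituted bases, at 63.8%. SNVs of replicate 3 also had the highest share, at 70.9%, against 69.5% to 69.7% in the others. The causes of these 4 gaps were not tested.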

How the results depend on the processing

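No paired analysis was possible because the labels give 1 group only, so no groups share replicate numbers. The differences between members and SNVs are taken within each sample. Of the alternatives, raising the fraction limit to 20% changed nothing, since no member lay under it. The transition difference stayed between -8.44 and -7.64 points and the lower-range fraction difference between -4.31 and -4.07 points over the other settings. The dense-bin difference was -0.986 points at a quality score of at least 100, -1.09 with 20 or more SNVs per bin and -0.417 with SpeedSeq SNVs alone, and the upper-range difference was -0.255 with reads on both strands. Reversals were found in the support difference with at least 1 base listed (0.170), in complex minus mnp support with at least 1 base listed (0.278) and with reads on both strands (0.344), and in the upper-range difference without replicate 4 (0.285). The share in all 4 samples was 21.6% with a depth of at least 20, 16.6% with mapping quality of at least 50, and 29.5% of equal-length sites when bases were matched in any form and at any quality. The cause was not tested. Leaving out each sample in turn, the share found in all that were left was 26.5% to 30.2%, and fewer samples make this share larger by construction. It gave 2202 to 2435 members per sample, -0.708 to -0.449 points for dense bins, -2.43 to -1.84 for support, -1.10 to -0.594 for complex minus mnp, -4.86 to -3.94 for the lower range, -2.53 to 0.285 for the upper range and -8.10 to -7.73 for transitions. Calls under a depth of 10 are listed in the files but were left out here, and no multi-base call with a fraction under 20% passed the other limits.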

Other observations

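Sites that all 4 samples carried outside the dense bins of every sample numbered 34, of which 29 had a mapping quality under 50 in at least 1 sample. The other 5 were better placed, and 4 of them were at 95% or more in each sample. They were chosen after their values were seen. They were the Smc3 allele described above, a pair in Efcab7 at chr4:99876262-99876266, a pair in Cdk8, which encodes a kinase of the Mediator complex, at chr5:146261076-146261080, and a pair outside protein-coding genes at chr2:22739571-22739573. The Efcab7 pair was read in 44 of 44, 48 of 48, 31 of 31 and 26 of 26 reads, and its bin held at most 1 SNV of both callers in any sample. VarScan2 listed both of its bases in replicates 1, 3 and 4 and neither in replicate 2. The Cdk8 pair was read in 92 of 92, 68 of 68, 22 of 23 and 35 of 36 reads. In Smc3 alone of these 4, neither base was listed by VarScan2 in any sample.
Efcab7 reference: TtttC
Efcab7 alternative: CtttT
Cdk8 reference: TggtC
Cdk8 alternative: CggtA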
